A study of Mus musculus with 23 samples.

Results

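Transcripts of 9 serotonin receptor genes were followed through all 7 groups of a mouse hippocampus RNA sequencing study. The genes were Htr1a, Htr1b, Htr2a, Htr2c, Htr3a, Htr4, Htr5a, Htr5b and Htr7, listed by name with earlier results of these data known. They are 9 of the 24985 gene symbols counted in each of 2 experiments. All 9 passed the filter on low counts in both, among 15453 genes tested in whole hippocampus and 14808 in dorsal hippocampus.

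Serotonin reaches the hippocampus in axons from the raphe nuclei of the brainstem, so the tissue holds the receptors while the cell bodies that make the transmitter lie elsewhere. The 5-HT1 and 5-HT5A receptors couple to inhibitory Gi/o proteins, the 5-HT2 receptors to Gq and phospholipase C, and the 5-HT4 and 5-HT7 receptors to Gs and cyclic AMP. The 5-HT3 receptor is an ion channel. In hippocampus the 5-HT1A receptor is best known on CA1 pyramidal cells, where it opens GIRK potassium channels, and the 5-HT3A subunit on interneurons born in the caudal ganglionic eminence.

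The mice were of the C57BL6/J strain and had both, 1 or no intact copies of Acss2, an enzyme that makes acetyl-CoA from acetate. The deletion of exons 3 to 7 was made in the one-cell embryo and was present in every tissue from then on. Whole hippocampi, cut out freehand from mice in their home cages, gave 2 WT, 2 Het and 2 KO libraries, all of batch B0. Dorsal hippocampus, a section 1 mm thick cut in a brain matrix, gave 5 WT and 5 KO libraries from the home cage. A further 3 WT and 4 KO dorsal libraries came from mice killed 30 min after contextual fear conditioning with 1 shock. The home cage was the only control for fear, so context, handling and shock cannot be told apart. The labels put the dorsal libraries in 3 batches. B1 took in the whole WT fear group beside WT home cage 1 and 2 and KO fear 1 and 2. B2 held only home cage tissue, replicates 3 to 5 of WT and 1 to 3 of KO. B3 held only KO tissue, replicates 4 and 5 from the home cage and 3 and 4 after fear. Age and sex are not given in the labels, and nothing there says that the libraries of a group are separate animals. A p-value therefore measures the spread between these libraries, which may be technical.

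Libraries held 18814460 to 27293661 counts in whole and 5362773 to 23412644 in dorsal hippocampus, with the WT fear libraries the shallowest group (5362773 to 9109104). Acss2 followed the labels, at 60.3 to 60.9 CPM (counts scaled to the library's normalized total) in whole WT, 31.2 to 34.3 in Het and 6.73 to 7.02 in KO, and at 56.2 to 71.3 in dorsal WT against 3.87 to 6.04 in dorsal KO. Xist, the X inactivation transcript of female cells, was at 597 to 677 CPM in whole WT and Het and at 0.137 and 0.145 in whole KO, so genotype and this difference cannot be told apart in the comparisons of whole KO. Every dorsal library held at most 0.251 CPM of Xist. The serotonin transporter Slc6a4, which marks raphe neurons, had 0 to 5 reads per library. Tph2, a second raphe marker, had 10 to 92.

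The receptors differed widely in level, and Htr1b was lowest in every group. Levels of different genes are compared here only as CPM per kilobase of merged exon. In whole WT hippocampus Htr1a stood first at a mean of 7.75, with Htr2c next at 6.97 and Htr3a at 5.25 CPM per kilobase. The ranges of Htr1a and Htr2c overlapped, and those of Htr2c and Htr3a did not. Htr7 (3.61), Htr5b (3.49) and Htr4 (3.08) followed with ranges that overlapped from each to the next, ahead of Htr5a (2.58), Htr2a (1.22) and Htr1b (0.447). In dorsal WT home cage libraries Htr3a (5.28), Htr1a (4.87), Htr7 (3.91) and Htr4 (3.30) led with overlapping neighbours. Below them came Htr5a (2.02), Htr2a (1.81), Htr5b (1.75) and Htr2c (1.34), again overlapping from each to the next, and then Htr1b at 0.429.

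**Figure D1:**
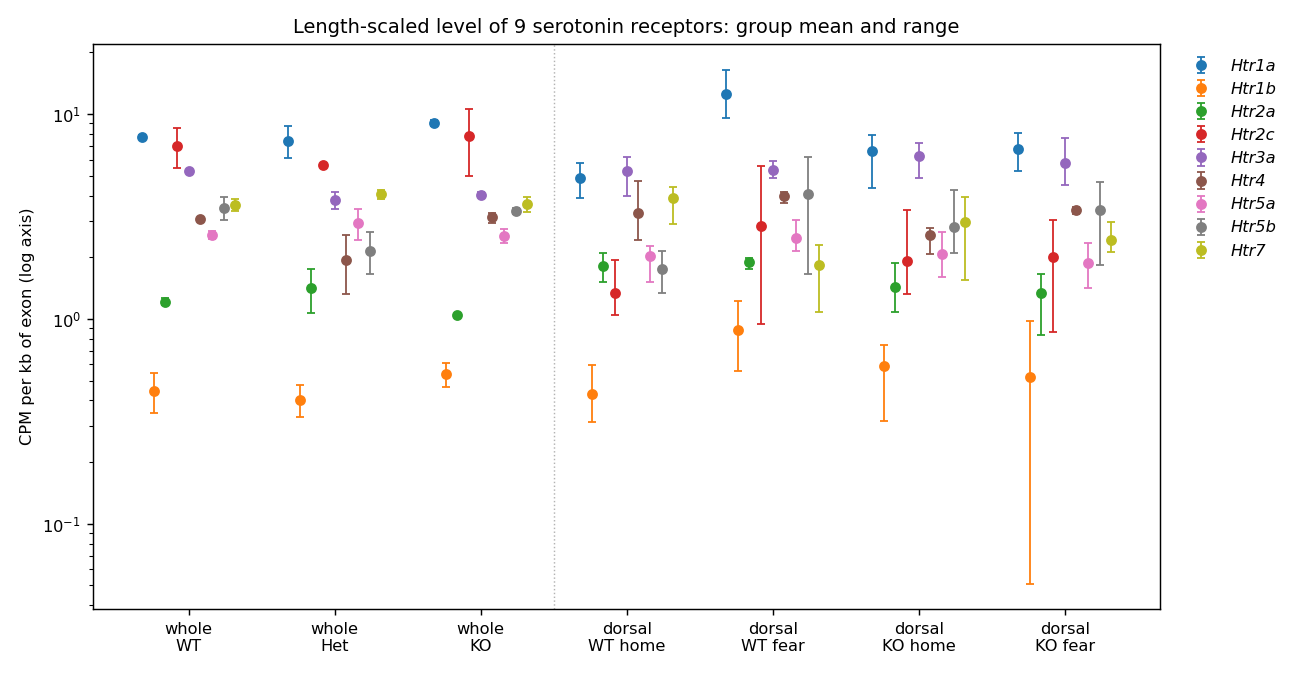
Mean level of each receptor in CPM per kilobase of exon (log axis) in the 7 groups, with bars from the lowest to the highest library of the group. Htr1b is lowest in every group, and Htr1a in WT fear, at 12.5, stands above the range of the next receptor.

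The place of Htr2c in that order differed most between the experiments, second in whole WT and eighth in dorsal WT. It had 46.6 to 98.5 CPM in the 6 whole libraries and 8.07 to 52.3 in the 17 dorsal ones. The 2 experiments were dissected, sequenced and normalized apart, so no test was made between them. Whole WT also had 663 to 677 CPM of Xist, and dorsal WT home cage at most 0.251. Choroid plexus markers summed to 46.1 and 2706 CPM in whole WT and to 164 to 221 in dorsal WT home cage. The part of these differences in the place of Htr2c was not tested. In bulk tissue, fewer cells of a type and less RNA per cell cannot be told apart.

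The tables count 5 other serotonin receptor genes beside the 9. Htr1f (0.987 to 4.58 CPM) and Htr6 (1.204 to 4.65) passed the filter in both experiments and passed the test in no comparison. Htr1d, Htr2b and Htr3b did not pass the filter. Htr1d had 0 to 10 reads per library, and Htr2b and Htr3b had at most 2, which is within the 3 counts that a count of 0 allows. Htr3b, which forms mixed channels with the 5-HT3A subunit, was thus not detectable at this depth.

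Fear conditioning in WT mice was accompanied by a higher level of 1 receptor, Htr1a, and 8 of the 9 receptors had a fitted difference above 0 where 47.5% of all genes did. Among the 8 were the small differences of Htr2a (0.09 ± 0.25), Htr3a (0.24 ± 0.20) and Htr4 (0.17 ± 0.19). These changed sign in 2, 1 and 1 of 15 alternatives. Htr1a was at 25.8, 17.4, 19.3, 22.6 and 24.1 CPM in WT home cage libraries 1 to 5 and at 42.7, 51.7 and 73.9 CPM in WT fear libraries 1 to 3. All fear libraries lay above all home cage libraries. The log2 difference was 1.46 ± 0.23 (SE; n = 3 and 5; adjusted p = 0.00932, edgeR's quasi-likelihood test). Htr1a was the 1 receptor of 9 called, where 1.63% of all genes were, and it ranked 12 by p among the 14808 genes. Within batch B1 the log2 difference was 1.39 ± 0.25 and did not pass (adjusted p = 0.103, edgeR). The call was also lost without WT home cage 2 (adjusted p = 0.143, edgeR) and without WT fear 3 (adjusted p = 0.0583, edgeR).

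CA1 markers moved with Htr1a. Of 7 CA1 pyramidal markers, 5 were called higher in WT fear and 0 lower, and the median log2 difference of the 7 was 1.202 against -0.02 for all genes. Their summed level was 413 to 596 CPM in WT home cage and 700 to 1202 in WT fear, and 0 of the 7 were at 0. Among those called were Mpped1 (1.202 ± 0.23, adjusted p = 0.0263, edgeR) and Gpr161 (1.66 ± 0.33, adjusted p = 0.0306, edgeR). Taken as a percentage of the CA1 sum, Htr1a was at 4.33, 3.96, 4.66, 5.08 and 5.43% in WT home cage and at 6.10, 4.62 and 6.14% in WT fear. These ranges overlapped, with WT fear 2 inside the home cage range and the other two above it. The summed oligodendrocyte markers were lower in WT fear (4087 to 5469 CPM) than in WT home cage (7039 to 14078), with 9 of 12 called lower. The ependymal markers, with a median log2 difference of -3.55, summed to 9.09 to 11.7 CPM in WT fear and 44.6 to 125 in WT home cage, with 5 of 10 called lower. The part of these cell mixtures in the Htr1a result was not tested.

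Htr7, a Gs-coupled receptor known from CA3 and thalamus, was the 1 receptor with a fitted difference below 0. It was at 9.88, 13.2, 13.5, 14.9 and 15.01 CPM in WT home cage and at 7.34, 7.78 and 3.66 in WT fear, all below the lowest home cage library. The log2 difference was -0.84 ± 0.27 and did not pass (adjusted p = 0.104, edgeR). Htr1a and Htr7 were thus the 2 of 9 receptors whose ranges did not overlap, where 16.1% of all genes had ranges apart. Markers of CA2 and CA3 moved with Htr7: 2 of 8 were called lower, and their sum was 679 to 1005 CPM in WT home cage and 335 to 548 in WT fear. Amigo2 (-1.65 ± 0.25, adjusted p = 0.00721, edgeR) and Cacng5 (-1.18 ± 0.26, adjusted p = 0.0382, edgeR) were those called. As a percentage of that sum Htr7 was at 1.45 to 1.94% in WT home cage and 0.979 to 2.32% in WT fear, which overlap. The part of the markers in the Htr7 values was not tested.

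**Figure D2:**
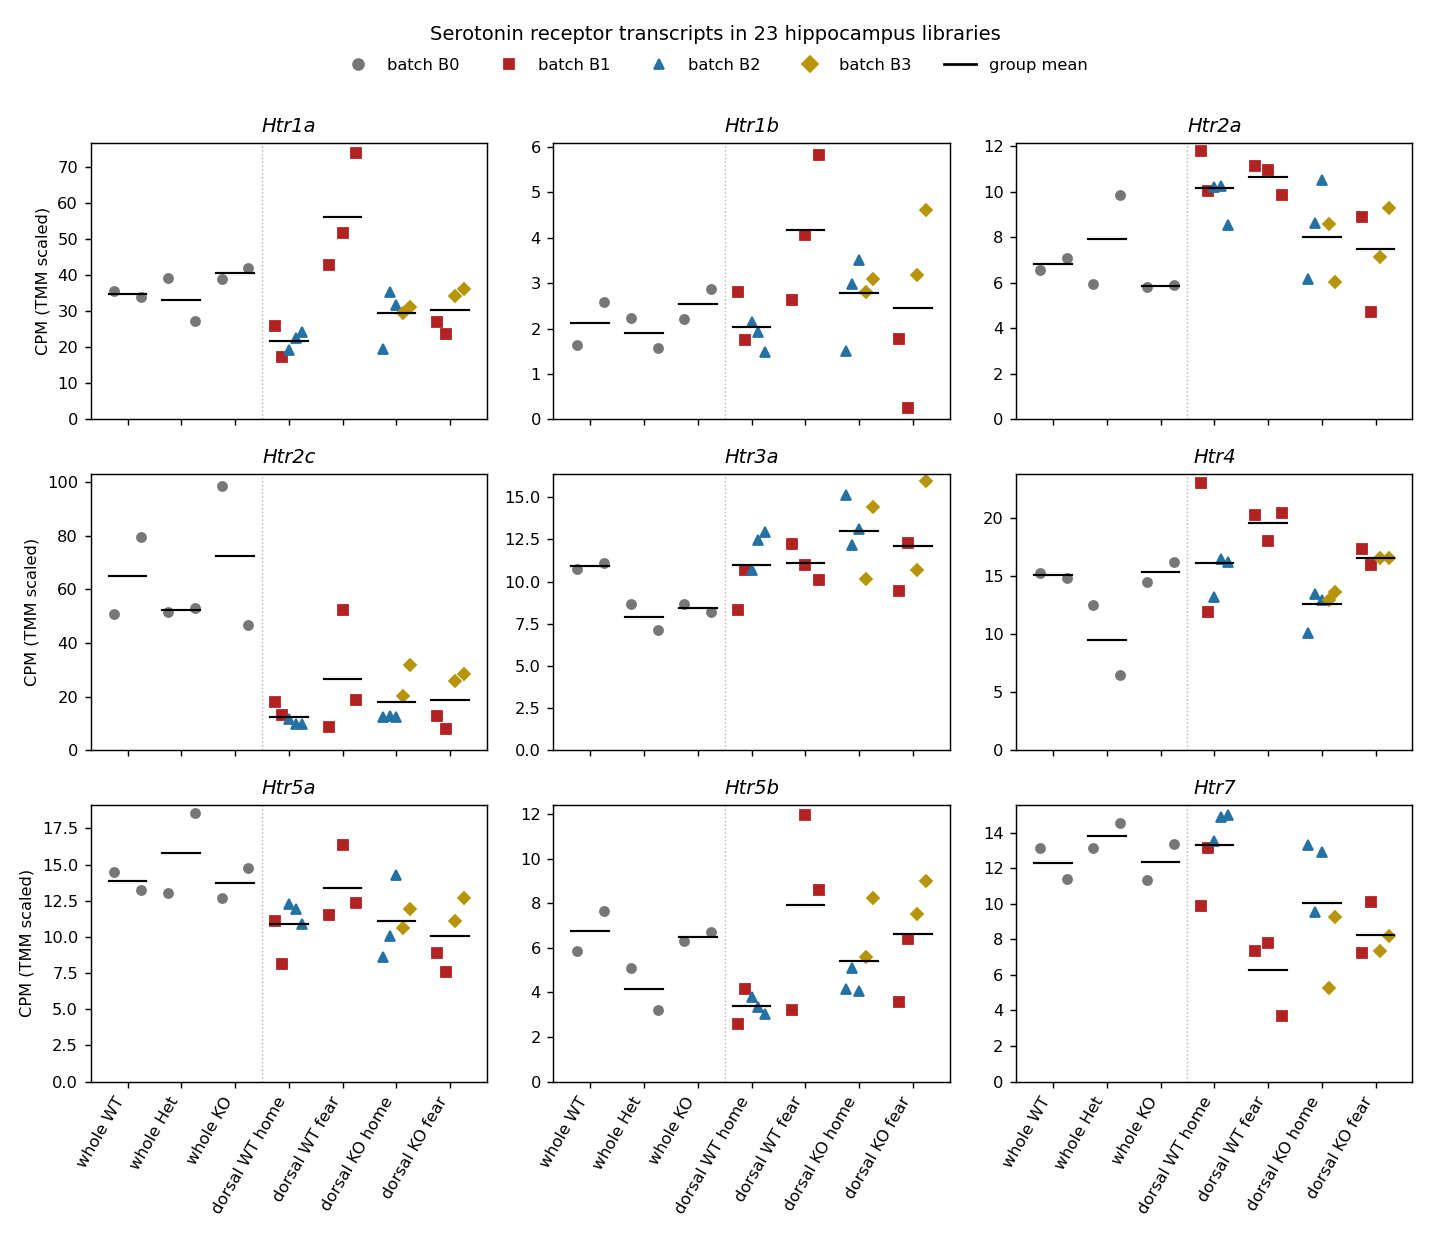
Level of each receptor in CPM in every library, by group, with batch by colour and marker and the group mean as a bar; each vertical axis starts at 0 and has its own scale. Htr1a in the 3 WT fear libraries (42.7 to 73.9 CPM) lies above every other dorsal library, and Htr7 there (3.66 to 7.78) below every WT home cage library.

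Htr1a lies on chromosome 13 (chr13:105443639-105448122, plus strand, GENCODE M21 on mm10; ENSMUSG00000021721.5) as 1 exon of 4484 bases with no annotated overlap. Htr7 lies on chromosome 19 (chr19:35958734-36057507, minus strand; ENSMUSG00000024798.15) in 6 merged exons. The bases upstream of both are shown because these 2 receptors had the WT fear ranges apart from home cage, in opposite directions. Ranges were apart for 16.1% of all genes, and the Htr7 difference did not pass (adjusted p = 0.104, edgeR). Their windows before the RefSeq start also differ in base composition. The 250 bases before the RefSeq start (GRCm38.p6) were 50.4% G or C with 6 CpG for Htr1a and 82% G or C with 41 CpG for Htr7, against medians of 52.4% and 6 over 32851 windows. Windows were found for 6 of the 9 receptors. Capitals mark the motif GGGCGG (Sp1 box) in Htr1a, 123 bases before the RefSeq start. The part of each window that GENCODE places inside the gene is left out, which leaves 196 bases for Htr1a and 103 for Htr7. The G or C and CpG values cover the whole windows of 250 bases, the left-out part included. Both strands were searched, and 32.7% of all windows held GGGCGG. Matches to other motifs, in the Htr7 window too, are not reported here. A match is a description of these letters and no measurement of binding.
Htr1a upstream, chr13:105443443-105443638, plus strand: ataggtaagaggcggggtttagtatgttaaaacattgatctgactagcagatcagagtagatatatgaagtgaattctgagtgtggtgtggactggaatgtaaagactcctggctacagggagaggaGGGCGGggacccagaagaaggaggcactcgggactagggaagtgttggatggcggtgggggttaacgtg
Htr7 upstream, chr19:36057508-36057610, minus strand: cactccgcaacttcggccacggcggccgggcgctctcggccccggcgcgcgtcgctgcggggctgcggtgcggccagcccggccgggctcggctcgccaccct

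The remaining Gi/o-coupled receptors had fitted WT fear differences above 0 that did not pass. Htr1b, a presynaptic receptor on axon terminals, had 14 to 46 reads in the WT fear libraries and was at 2.64, 4.06 and 5.81 CPM there, against 2.81, 1.76, 2.15, 1.93 and 1.48 in WT home cage. WT home cage 1 lay above WT fear 1, so the ranges overlapped, and the log2 difference was 1.35 ± 0.52 (adjusted p = 0.155, edgeR). Htr5a was at 11.5, 16.3 and 12.4 CPM in WT fear and 11.1, 8.16, 12.2, 11.9 and 10.9 in WT home cage. Its difference of 0.53 ± 0.21 did not pass (adjusted p = 0.157, edgeR), and the ranges overlapped.

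Htr5b, whose human counterpart is a pseudogene, was high in 2 of the 3 WT fear libraries. It was at 3.20, 11.9 and 8.59 CPM in WT fear and at 2.58, 4.14, 3.80, 3.35 and 3.01 in WT home cage. WT fear 1 lay inside the home cage range, and the difference of 1.32 ± 0.36 did not pass (adjusted p = 0.0642, edgeR). Without WT fear 1 it passed (1.67 ± 0.27, adjusted p = 0.00415, edgeR).

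The Gq-coupled Htr2c had a similar split, at 8.85, 52.3 and 18.7 CPM in WT fear and 18.1, 13.2, 11.7, 9.78 and 9.70 in WT home cage. WT fear 1 was below every home cage library and the other two above them all. The difference of 0.99 ± 0.42 did not pass (adjusted p = 0.192, edgeR) except without WT fear 1 (adjusted p = 0.0289, edgeR), and without WT fear 2 it was as small as 0.04. WT fear 2 also held the highest sum of thalamus and habenula markers of the 17 dorsal libraries, 204 CPM against 108 to 181. It had the highest sum of neocortex and subiculum markers as well, 306 CPM against 189 to 251, and the lowest of choroid plexus markers, 54.7 CPM. The part of these markers in the Htr2c values was not tested. The choroid plexus is the tissue with the strongest known Htr2c expression, and its marker sum was 119 to 156 CPM in the other WT fear libraries.

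The 3 other receptors had the smallest WT fear differences. Htr2a was at 11.1, 10.96 and 9.85 CPM in WT fear and 8.53 to 11.8 in WT home cage (0.09 ± 0.25, adjusted p = 0.859, edgeR). Htr3a was at 12.2, 10.96 and 10.1 CPM against 8.31 to 12.9 (0.24 ± 0.20, adjusted p = 0.503, edgeR). Htr4 was at 20.3, 18.1 and 20.5 CPM against 11.9 to 23.03 (0.17 ± 0.19, adjusted p = 0.626, edgeR). Their ranges overlapped in each case. Of the 9 receptors, 6 had an unadjusted p under 0.05, where 20.8% of all genes did, and DESeq2 called 3 of them (Htr1a, Htr5b and Htr7) among 938 genes in all.

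In KO mice fear conditioning was not accompanied by a called change in any receptor. Htr1a was at 19.4, 35.4, 31.8, 29.5 and 31.3 CPM in KO home cage libraries 1 to 5 and at 26.9, 23.7, 34.1 and 36.1 in KO fear libraries 1 to 4. The ranges overlapped, and the log2 difference was 0.08 ± 0.21 (adjusted p = 0.987, edgeR). Of the 9 receptors edgeR called 0, with 0.00% of all genes called, 0 had an unadjusted p under 0.05 against 4.82% of all genes, and DESeq2 called 0.

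Htr4, a Gs-coupled receptor of pyramidal cells, was the receptor with KO ranges apart. It was at 10.2, 13.5, 12.9, 13.0 and 13.6 CPM in KO home cage and at 17.4, 16.0, 16.6 and 16.6 in KO fear, and 4.30% of all genes had ranges apart. The difference of 0.30 ± 0.17 did not pass (adjusted p = 0.968, edgeR). Within batch B3, the batch that held both groups, it was 0.31 ± 0.13 and did not pass (adjusted p = 0.870, edgeR). KO fear 1 and 2 share no batch with a KO home cage library.

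The other receptors overlapped between KO fear and KO home cage. Htr7 was at 7.24, 10.1, 7.37 and 8.17 CPM in KO fear and at 13.3, 9.54, 12.9, 5.24 and 9.26 in KO home cage (0.02 ± 0.22). Htr1b fell to 2 reads in KO fear 2 (0.241 CPM), with 1.78, 3.17 and 4.62 CPM in the other KO fear libraries and 1.51 to 3.51 in KO home cage. Htr2c was higher in B3 than in the other batch of each KO group. It was at 12.6, 12.8 and 12.3 CPM in KO home cage of B2 and 20.2 and 31.8 in B3. After fear it was at 12.7 and 8.07 CPM in KO libraries of B1 and 25.8 and 28.3 in B3. Only B3 held both KO groups, so batch and group cannot be told apart in the other KO libraries. Htr5b was at 3.55, 6.38, 7.53 and 8.98 CPM in KO fear and 4.17, 5.09, 4.05, 5.59 and 8.23 in KO home cage, with the highest library of each group in B3. Htr2a (4.70 to 9.29 CPM in KO fear and 6.04 to 10.5 in KO home cage), Htr3a (9.43 to 15.9 and 10.1 to 15.1) and Htr5a (7.59 to 12.7 and 8.59 to 14.3) had differences of at most 0.09 in size on the log2 scale.

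The difference between the genotypes' fear responses was tested itself, as an interaction. Htr1a was called, with a KO response lower by 1.38 ± 0.26 on the log2 scale (log2 -1.38, adjusted p = 0.0406, edgeR), the 1 of 9 receptors called where 0.479% of all genes were. This test uses the same WT fear libraries as the WT fear response. No batch held all the dorsal groups, so the interaction rests on the batch term and could not be fitted within 1 batch. With no batch term Htr1a was not called. The call was lost without any one of 13 of the 17 dorsal libraries, with adjusted p up to 0.186 (edgeR). It held when the library left out was the first of WT home cage, of WT fear or of KO home cage, or KO home cage 3. CA1 markers again moved with it: 3 of 7 were called lower and 0 higher in the interaction, with a median of -1.52, and Gpr161 (-2.04 ± 0.38, adjusted p = 0.0406, edgeR) had the smallest p. The CA1 sum ran from 391.5 to 980 CPM in the KO home cage libraries and from 395 to 1018 in those after fear. Htr1a as a percentage of it ran from 3.01 to 4.97% in the KO home cage and from 3.55 to 6.35% after fear, ranges that overlapped each other. Both KO fear libraries of B1 were above 6% and both of B3 below 4%. The part of CA1 markers in the interaction was not tested.

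The remaining receptors did not pass the interaction test. Htr1b (-1.50 ± 0.58, adjusted p = 0.158, edgeR), Htr2c (-1.23 ± 0.48, adjusted p = 0.161, edgeR), Htr5b (-1.08 ± 0.39, adjusted p = 0.131, edgeR) and Htr5a (-0.53 ± 0.23, adjusted p = 0.198, edgeR) had values below 0. Htr7 had the opposite sign (0.86 ± 0.31, adjusted p = 0.129, edgeR). With Htr1a these made 6 of 9 receptors with an unadjusted p under 0.05, where 21.9% of all genes were. Without WT fear 1, Htr2c (adjusted p = 0.0216, edgeR) and Htr5b (adjusted p = 0.0125, edgeR) passed as well. Htr2a (-0.15 ± 0.29), Htr3a (-0.15 ± 0.22) and Htr4 (0.13 ± 0.22) lay within 1 SE of 0.

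**Figure D3:**
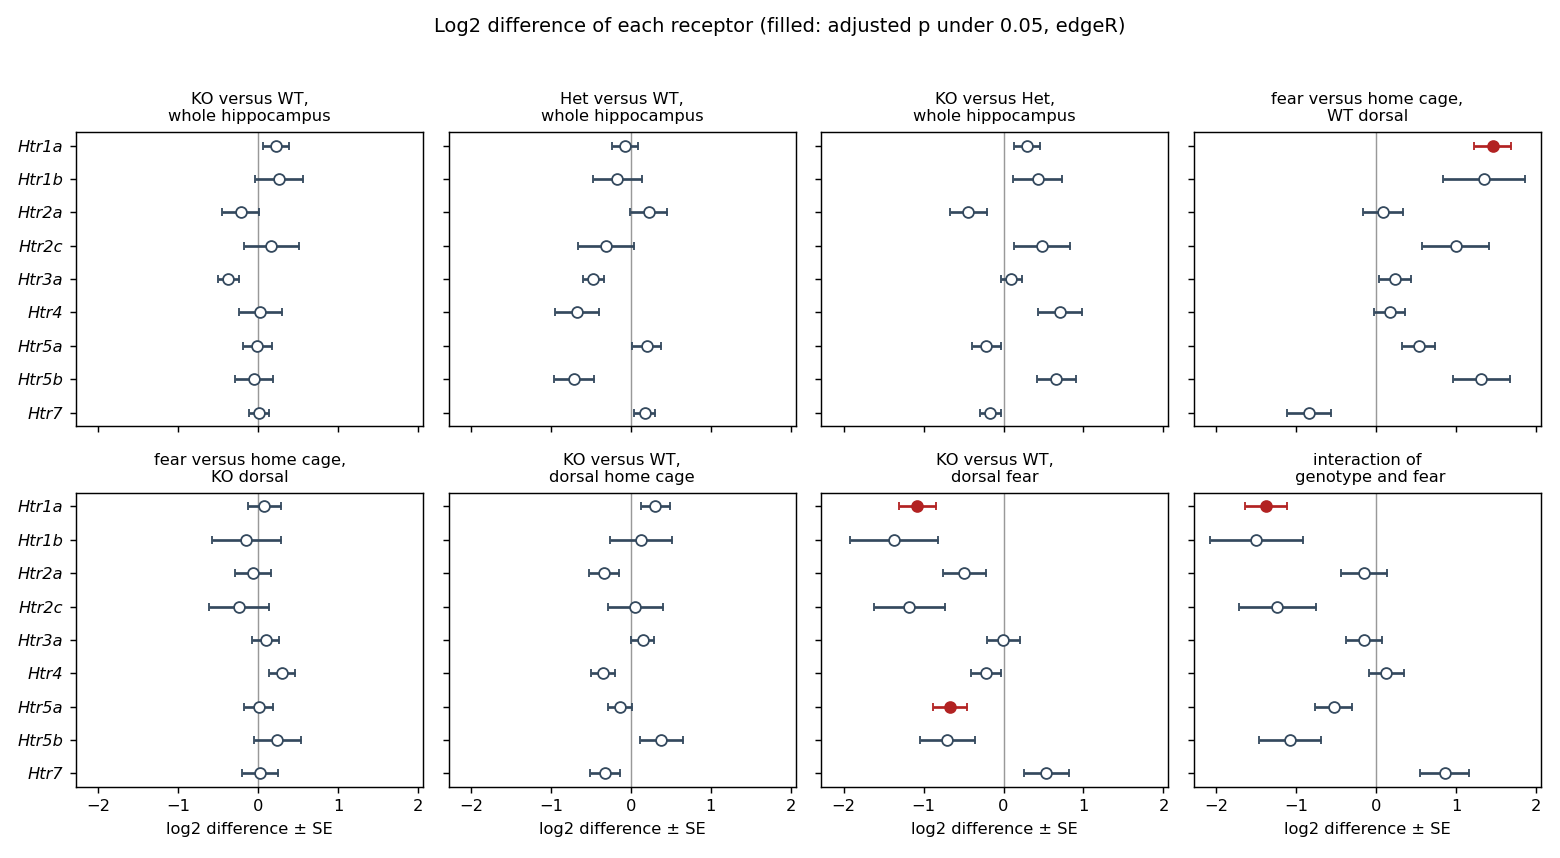
Log2 difference of each receptor in the 8 comparisons, with bars of ± 1 SE; filled symbols have adjusted p under 0.05 (edgeR). Filled symbols stand for Htr1a in WT fear against home cage (1.46), Htr1a (-1.08) and Htr5a (-0.67) in KO against WT after fear, and Htr1a in the interaction (-1.38).

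Before fear, in the dorsal home cage libraries, no receptor was called between KO and WT, with 0.00675% of all genes called. DESeq2 also called 0, and 1 of 9 receptors had an unadjusted p under 0.05 where 11.3% of all genes did. Ranges were apart for 0 of 9, beside 3.09% of all genes. That receptor was Htr4 (-0.35 ± 0.15, adjusted p = 0.440, edgeR), lower in KO (10.2 to 13.6 CPM) than in WT (11.9 to 23.03) with overlapping ranges. Htr1a was higher in 4 of 5 KO libraries than in any WT home cage library, and the fifth, KO home cage 1 at 19.4 CPM, lay inside the WT range (0.30 ± 0.18, adjusted p = 0.488, edgeR). The CA1 sum was 757 to 980 CPM in those 4 KO libraries, above all WT home cage libraries, and 391.5 in KO home cage 1, below them all. Its part in these Htr1a values was not tested. Htr2a (-0.34 ± 0.19) and Htr7 (-0.32 ± 0.19) had values below 0, and Htr5b (0.38 ± 0.27) above.

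After fear, Htr1a and Htr5a were lower in KO than in WT. This comparison shares its WT fear libraries with the WT fear response and is no independent check of it. Htr1a, at the values above, had no overlap between WT fear and KO fear, and the log2 difference was -1.08 ± 0.23 (adjusted p = 0.0155, edgeR). Htr5a, at 11.5, 16.3 and 12.4 CPM in WT fear and 8.88, 7.59, 11.1 and 12.7 in KO fear, overlapped through KO fear 4 (-0.67 ± 0.21, adjusted p = 0.0348, edgeR). The 2 of 9 called stand beside 22.3% of all genes called, a share near that of the receptors. The Htr1a call was lost without WT fear 2 (adjusted p = 0.0713, edgeR), WT fear 3 (adjusted p = 0.0679, edgeR) or KO fear 2 (adjusted p = 0.110, edgeR). The Htr5a call was lost without WT fear 2 or 3 or KO fear 1, 2 or 3, with adjusted p of 0.0518 to 0.167 (edgeR). Within B1 Htr1a was at -1.14 ± 0.22 (adjusted p = 0.0107, edgeR) and Htr5a at -0.70 ± 0.23 (adjusted p = 0.0542, edgeR).

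The rest of the receptors did not pass between KO fear and WT fear. Htr2a and Htr4 had ranges apart, with 4.70 to 9.29 CPM of Htr2a in KO fear and 9.85 to 11.1 in WT fear (-0.49 ± 0.27, adjusted p = 0.184, edgeR). Htr4 was at 16.0 to 17.4 CPM in KO fear and 18.1 to 20.5 in WT fear (-0.22 ± 0.19, adjusted p = 0.421, edgeR). DESeq2 called 3 receptors (Htr1a, Htr1b and Htr5a) among 4055 genes in all. Htr1a, Htr2a and Htr4 were the 3 of 9 with ranges apart, beside 21.4% of all genes, and 4 of 9 had an unadjusted p under 0.05, beside 39.0%. Htr1b (-1.37 ± 0.55), Htr2c (-1.18 ± 0.44) and Htr5b (-0.70 ± 0.35) had larger differences with larger errors (adjusted p of 0.0769, 0.0632 and 0.143, edgeR). Htr7 was at 0.53 ± 0.28 and Htr3a at 0.00 ± 0.20. In this comparison 6 of 7 CA1 markers were called lower, and 9 of 10 ependymal and 9 of 12 oligodendrocyte markers higher. Their part in the receptor values was not tested.

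**Figure D4:**
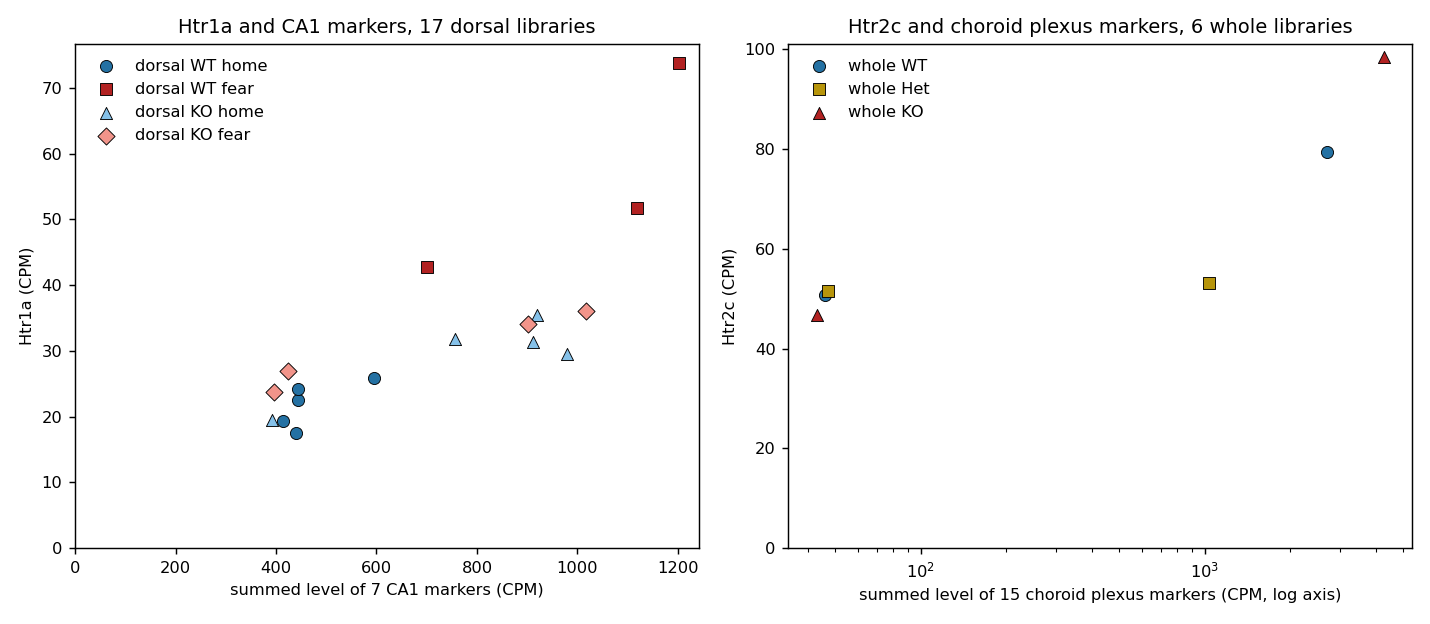
Left, Htr1a against the summed level of 7 CA1 markers in the 17 dorsal libraries (CPM, both axes from 0); right, Htr2c (CPM) against the summed level of 15 choroid plexus markers (CPM, log axis) in the 6 whole libraries. WT fear libraries have CA1 sums of 700 to 1202 CPM and the highest Htr1a, and the whole libraries with the 2 highest choroid plexus sums have the 2 highest Htr2c levels, 79.4 and 98.5 CPM.

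In whole hippocampus no receptor was called between KO and WT (0.0388% of all genes called), between Het and WT (0.00%) or between KO and Het (0.0841%). DESeq2 called 0 in each. An unadjusted p under 0.05 was found for 1, 3 and 2 of the 9 receptors, where 6.09%, 13.9% and 13.2% of all genes had one.

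Htr2c showed a wide spread within WT and within KO. It was at 50.7 and 79.4 CPM in WT, 51.6 and 53.2 in Het and 98.5 and 46.6 in KO. The choroid plexus markers summed to 46.1 and 2706 CPM in WT, 47.0 and 1040 in Het and 4284 and 43.0 in KO, in the same order of libraries. The 3 libraries with sums under 50 CPM had 46.6 to 51.6 CPM of Htr2c. The log2 difference between KO and WT was 0.16 ± 0.35 (adjusted p = 0.960, edgeR), and it was -0.48 without KO 1 and 0.60 without KO 2. The part of choroid plexus tissue in these values was not tested. Htr2c lies on the X chromosome (chrX:146962513-147197277), and the library with the highest level and that with the lowest were both whole KO, the group with the low Xist level.

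Htr3a had an unadjusted p under 0.05 in both mutant genotypes and passed after adjustment in neither. It was at 10.8 and 11.1 CPM in WT, 8.68 and 7.13 in Het and 8.65 and 8.21 in KO, with both WT libraries above all others. The log2 differences from WT were -0.47 ± 0.13 in Het (adjusted p = 0.282, edgeR) and -0.37 ± 0.13 in KO (adjusted p = 0.802, edgeR). Both share the WT libraries. Ranges apart from WT were found for 4 of 9 receptors in Het beside 46.6% of all genes, and for 3 of 9 in KO beside 42.1%. Between KO and Het they were found for 3 of 9 beside 43.0%. Dorsal Htr3a was not lower in KO than in WT home cage (10.1 to 15.1 against 8.31 to 12.9 CPM, 0.15 ± 0.15, adjusted p = 0.658, edgeR). The markers of interneurons from the caudal ganglionic eminence summed to 835 and 803 CPM in whole WT, 776 and 684 in Het and 745 and 770 in KO, the WT libraries again the highest. Of the 12, edgeR called 0 in either comparison with WT, DESeq2 called 0, and 3 in Het and 1 in KO had an unadjusted p under 0.05. Their part in the Htr3a values was not tested. Htr3a overlaps Gm32335 and Htr1b overlaps D430036J16Rik on the opposite strand over exons, and these libraries, made with a kit that does not mark strand, cannot separate them.

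Htr4 and Htr5b were lowest in 1 Het library. Htr4 was at 15.3 and 14.9 CPM in WT, 12.6 and 6.50 in Het and 14.5 and 16.2 in KO. Htr5b was at 5.86 and 7.63 CPM in WT, 5.11 and 3.20 in Het and 6.29 and 6.70 in KO. In both genes Het 2 was the lowest of the 6 libraries. Against WT the Het differences were -0.68 ± 0.28 for Htr4 (adjusted p = 0.355, edgeR) and -0.71 ± 0.25 for Htr5b (adjusted p = 0.322, edgeR). With Het 2 as the lone Het library, 3 receptors were called against WT (Htr3a, Htr4 and Htr5b) and 4 against KO (Htr1a, Htr2a, Htr4 and Htr5b), while calls over all genes went from 0 to 1424 and from 13 to 1211. Het 2 also stood apart elsewhere: its CA1 sum was 613 CPM against 790 to 872 in the other 5 libraries, and its dentate gyrus sum 287 against 445 to 507. It also had the highest neocortex and subiculum sum, 516 CPM against 310 to 339.

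The other receptors of whole hippocampus passed in no comparison. Htr1a was at 35.6 and 33.9 CPM in WT, 39.1 and 27.2 in Het and 39.0 and 42.0 in KO (KO against WT 0.22 ± 0.16, adjusted p = 0.875, edgeR). Htr2a was at 6.54 and 7.09 CPM in WT, 5.97 and 9.85 in Het and 5.82 and 5.88 in KO. Htr5a was at 14.5 and 13.2, 13.0 and 18.6, and 12.7 and 14.8 CPM in the same order. Htr7 ran from 11.4 to 14.5 CPM over the 6 libraries, the narrowest spread of the 9 receptors at 1.28 times. Htr1b had 36 to 63 reads per library (1.56 to 2.87 CPM), which limits what can be detected for it.

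The genes that make, carry and break down serotonin had fitted WT fear differences mostly below 0. Of 13 tested, 1 was above 0, where 47.5% of all genes were, and 1 was called lower, beside 1.63% of all genes. It was Maoa, the monoamine oxidase that degrades serotonin (-0.65 ± 0.12, adjusted p = 0.0263, edgeR). It was at 50.03 to 62.7 CPM in WT home cage and 31.6 to 42.9 in WT fear, ranges apart. Maoa was also called in the interaction (0.70 ± 0.14, adjusted p = 0.0447, edgeR) and in KO against WT after fear (0.62 ± 0.13, adjusted p = 0.0155, edgeR). In KO against WT after fear, Qdpr, which recycles the cofactor of tryptophan hydroxylase, was called higher (1.18 ± 0.27, adjusted p = 0.0155, edgeR) and Slc29a4, a low-affinity serotonin transporter, lower (-0.67 ± 0.19, adjusted p = 0.0244, edgeR), with 3 called higher and 1 lower of 13, beside 22.3% of all genes. Ddc (-1.24 ± 0.33, adjusted p = 0.0626, edgeR), the decarboxylase, did not pass in WT fear. Tph2, the enzyme that starts neuronal serotonin synthesis, was at 1.096 to 5.59 CPM in the dorsal libraries. Oligodendrocyte markers had a median log2 difference of -1.23 in WT fear and 0.95 in KO against WT after fear. Ependymal markers had medians of -3.55 and 3.41 in the same comparisons. The part of these markers in the values of the serotonin genes was not tested.

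Genes downstream of the receptors are read against the 1.63% of all genes called in WT fear. Of 14 Gi/o genes 0 were called, with Gnaz (0.49 ± 0.13, adjusted p = 0.0557, edgeR) and the GIRK subunit Kcnj9 (0.85 ± 0.23, adjusted p = 0.0653, edgeR) the nearest. Of 20 Gs genes 0 were called, led by Rapgef4 (-0.43 ± 0.13, adjusted p = 0.0960, edgeR) and Adcy2 (0.35 ± 0.12, adjusted p = 0.122, edgeR). Of 14 Gq genes 1 was called higher, the inositol trisphosphate receptor Itpr1 (0.76 ± 0.19, adjusted p = 0.0494, edgeR). Of 17 receptor partners and regulators 0 were called, with Snx27 (0.34 ± 0.12, adjusted p = 0.131, edgeR) first. An unadjusted p under 0.05 was found for 4 Gi/o genes, 3 Gs genes and 3 partners, where 20.8% of all genes had one. DESeq2 called 3, 0 and 0 genes of these 3 lists, among 938 genes in all. The medians of these 4 lists ran from 0.06 to 0.17 against -0.02 for all genes.

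In KO against WT after fear the same lists held more calls, among 22.3% of all genes. They were lower for 5 of 14 Gi/o genes, 7 of 20 Gs genes (with 1 higher), 5 of 14 Gq genes and 3 of 17 partners. Gnaz (-0.62 ± 0.13), the protein kinase A subunit Prkaca (-0.56 ± 0.12) and Adar (-0.73 ± 0.18), an enzyme that edits Htr2c RNA, had the smallest p of the Gi/o, Gs and partner lists (adjusted p of 0.0155, 0.0155 and 0.0180, edgeR). In the interaction edgeR called 0 genes of these 4 lists, beside 0.479% of all genes. DESeq2 called 2 Gi/o, 2 Gs, 3 Gq and 0 partner genes, among 907 genes in all. Before adjustment 4 Gi/o, 8 Gs, 4 Gq and 3 partner genes were under 0.05, where 21.9% of all genes were. In KO fear against KO home cage edgeR and DESeq2 called 0 of these genes. There 2 Gi/o, 1 Gs, 1 Gq and 0 partner genes had an unadjusted p under 0.05, beside 4.82% of all genes.

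Receptors for other amines and acetylcholine were measured in the same libraries. Of 18 tested in WT fear, 3 were called higher and 0 lower, beside 1.63% of all genes called, with a median of 0.45. They were Chrm4 (1.53 ± 0.27, adjusted p = 0.0186, edgeR) and Adra2c (0.87 ± 0.17, adjusted p = 0.0306, edgeR), both Gi/o-coupled, and the Gs-coupled Adrb1 (0.86 ± 0.20, adjusted p = 0.0457, edgeR). The median of the 9 serotonin receptors was 0.53, and no test set one family against the other. In KO against WT after fear 8 of the same 18 were called lower and 0 higher, beside 22.3% of all genes called. In the interaction 1 was called lower and 0 higher, beside 0.479%. Among 14 genes known to rise within minutes of neuronal activity, 10 were called higher in WT fear, beside 1.63% of all genes called. In KO fear against KO home cage edgeR called 0 of the 14, and DESeq2 called 4, among 6 genes in all. There 6 of the 14 had an unadjusted p under 0.05, beside 4.82% of all genes. In the interaction edgeR called 3 of the 14 lower and 0 higher, beside 0.479% of all genes.

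Across the 17 dorsal libraries some receptors varied together. The values here are Pearson correlations of log2 CPM with n = 17, given as a description, since these libraries share groups, batches and cell mixtures. Htr2c and Htr5b had the highest r of the 36 pairs, 0.76 (Spearman 0.68), with 0.60 in the 7 libraries of B1 and 0.91 in the 6 of B2. Htr1b and Htr5a followed at 0.74 (Spearman 0.78; 0.79 in B1 and 0.58 in B2). Htr1a and Htr7 had the lowest, -0.78 (Spearman -0.73; -0.89 in B1 and -0.69 in B2).

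The genes whose pattern was most like each receptor were found among all 14808 genes tested. For Htr1a they were Rab8b (r = 0.94), Bcr (0.93) and Sertm1 (0.91), for Htr1b Prkcb (0.95), Aph1c (0.93) and Cntnap2 (0.93), and for Htr2a Sec63 (0.94), Thrap3 (0.91) and Klf12 (0.91). For Htr2c they were Etv1 (0.94), Ldb2 (0.94) and Gabra3 (0.93), and for Htr5b H13 (0.93), Inhbb (0.93) and Rabep2 (0.89). Htr5a had the closest match of all, Fam78b (0.96), before D430041D05Rik (0.95) and Map3k12 (0.94). For Htr7 they were Prss23 (0.91), Blnk (0.89) and Fgf5 (0.89), and for Htr4 Ddx19b (0.88), Wee1 (0.86) and Slc16a10 (0.86). Htr3a had the weakest matches, Rita1 (0.77), Mfsd11 (0.76) and Trpv2 (0.74). Within B1 and B2 these 27 correlations stayed between 0.56 and 0.99.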

How the data were processed

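Poly(A) RNA of 23 mouse hippocampus libraries was sequenced. The authors deposited raw read counts by gene symbol as a separate table per experiment, and these counts were analysed. STAR, SAMtools 1.1, HTSeq 0.9.1, DESeq2, limma and mm10 are named in the submitters' processing notes, without their roles. The gene models counted are not given in the sources used here. Normalized tables that came with the counts were left out. Among dorsal symbols 26 had turned into dates, and 0 rows held unassigned reads.

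Tests were run in R 4.3.3 with edgeR 4.0.16 (quasi-likelihood F test, TMM). Genes were kept by filterByExpr (min.count 10, min.total.count 15). The whole hippocampus model had genotype as its term (6 libraries, 3 residual degrees of freedom), and the dorsal model group plus batch (17 libraries, 11). Two-sided p-values were adjusted by Benjamini-Hochberg across every gene in the fit and called under 0.05. Standard errors were taken as |log2 difference| / sqrt(F). CPM use the TMM-scaled library, and lengths are merged GENCODE M21 exons. Correlations used log2 CPM with a prior count of 2. Scripts were tested on simulated counts. DESeq2 1.42.0, other size factors, no filter, no batch term, a replicate block, the compared groups alone, 1 batch alone and each library left out were alternatives.

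Libraries of a group differed by more than sampling noise (chi-square of 6.10 to 62.1 per gene over 32 pairs). The reads carry no molecular identifiers and are not independent molecules, so counting limits cover counting error only. The receptors and gene lists were chosen with earlier results of these data known. All 9 receptors were named; of each list, called genes were counted and up to 3 with the smallest p named (up to 2 where none was called), and for likeness the 3 highest correlations. Some items that this rule names are not reported here. The percentages of marker sums were added after the values had been seen.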

Additional observations from a re-analysis of the deposited data

Results flagged for a closer look

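Htr4 in KO home cage 1 was low beside the other libraries of its group, at 10.2 CPM (202 reads) against 12.9 to 13.6 CPM in KO home cage 2 to 5. The gap to the nearest library, set against the range of the group, passed Dixon's limit. This was looked for in 27 sets of libraries, 9 receptors in 3 dorsal groups of 4 or 5 libraries, and chance marks about 1 in 20 of them. KO home cage 1 also had the lowest CA1 marker sum of its group, 391.5 CPM, and the lowest Htr1a, 19.4 CPM.

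The fear responses of Htr1a differed between the genotypes by a log2 of -1.38 (adjusted p = 0.0406, edgeR), with 1.46 in WT and 0.08 in KO. All 3 WT fear libraries lay above every WT home cage library, while KO fear and KO home cage overlapped. Over 22 alternatives this value ran from -1.57 to -1.13 and passed in 7.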

How the results depend on the processing

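The count of receptors called stayed at 0 under all alternatives for KO against WT in whole hippocampus and in the dorsal home cage, and for fear in KO. For fear in WT (1 receptor) it was 3 with DESeq2, 2 with no filter, 3 with no batch term, 0 with only the groups compared and 0 within batch B1, and 0 to 3 with 1 library left out (0 without WT home cage 2 or WT fear 3, 3 without WT fear 1). For KO against WT after fear (2) it was 3 with DESeq2, 1 with no batch term and 0 to 5 with 1 library left out (5 without WT fear 1, 0 without WT fear 2, WT fear 3 or KO fear 2). Over the 14 alternatives of that comparison Htr1a passed in 10 and Htr5a in 6. Htr1b, Htr2c and Htr5b, not called in the main fit, passed in 5, 2 and 1. For the interaction (1) it was 0 with no batch term and 0 to 3 with 1 library left out. For Het against WT it was 0 to 3 and for KO against Het 0 to 4, the highest without Het 1; the lone Het library is then assumed to vary like the other groups. The cause of these changes was not tested.

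With the replicate number as a block, the count was 0 for fear in WT, 0 for KO against WT after fear and 0 for the interaction, and no other receptor count changed. The numbers do not pair the libraries: deviations of same-numbered libraries correlated at -0.68 to 0.39, above 0.1 in 5 of 21 pairs.

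Of 999 alternative values of single receptors, 943 stayed on their side of the threshold, 32 lost a call, 24 gained one and 0 called values changed sign. Among the 943, 62 values that passed in neither fit changed sign. Calls over all genes moved too, for fear in WT from 241 to between 6 and 829 with 1 library left out, 938 with DESeq2, 528 with no filter, 15 with the block, 712 with no batch term, 19 with the groups alone and 5 within B1. For KO against WT after fear they went from 3298 to between 1 and 4203, 1 with the block and 1544 with no batch term. For the interaction they went from 71 to between 0 and 1007, 130 with other size factors, 907 with DESeq2, 400 with no filter and 0 with the block or no batch term. For KO against WT in the dorsal home cage they went from 1 to between 1 and 585, with 2 under DESeq2, no filter or no batch term, and for fear in KO from 0 to 6 with DESeq2, 1 with no batch term and 2 within B3. No filter gave 3 and 23 genes for Het to WT and KO to Het, and the block or the groups alone 7 for KO to Het. DESeq2 called 19, 142 and 135 genes in the comparisons KO to WT, Het to WT and KO to Het of whole hippocampus (6, 0 and 13 with edgeR), where 1 library left out gave 5 to 7, 0 to 1424 and 6 to 1211. Other size factors moved the median of all genes by under 0.1. Depth limits Htr1b, with 2 to 91 reads per dorsal library.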
